A study of Mus musculus with 19 samples.

Results

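The enzymes that build purine and pyrimidine nucleotides from small precursors were followed across sorted mouse thymocytes with and without Raptor. The group was chosen by gene symbol and held 10 enzymes, 3 of pyrimidine and 7 of purine synthesis. Of these 10 genes, 8 had a probe set with a single gene symbol and were measured: Cad, Dhodh and Umps of the pyrimidine route, and Ppat, Gart, Paics, Adsl and Atic of the purine route. They are 8 of the 22180 genes tested. The probe set that carries Pfas also carries a second gene symbol, and no probe set is named for Impdh2 in the annotation table, so neither is analysed here. No filter on signal was used, so no measured enzyme was left out for a low level.

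The study profiled 3 thymocyte populations of C57BL/6 mice, each from WT animals and from CD2-cre mice crossed with Raptorfl/fl mice, whose cells the labels give as Rptor-/-. Rptor encodes Raptor, the subunit that defines the kinase complex mTORC1, and CD2-cre is active in lymphoid cells. Sorting was on surface markers. DN3a thymocytes lacked CD4, CD8 and both T-cell receptors, were CD25-high and lacked CD44 and CD28. Immature single-positive (ISP) cells had CD8 but neither CD4 nor TCRβ. The γδ T-cell gate, as the labels give it, was set by absence of CD4, CD8, TCRβ, Gr1 and NK1.1. The ISP set had 4 WT and 3 Rptor-/- arrays, and DN3a cells and γδ T cells had 3 arrays of each genotype, 19 in all. Animal age, the number of animals behind an array and whether WT animals carried Cre or the floxed allele are not stated in the labels used here. The p-values therefore reflect spread among arrays, part of which may be technical.

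Purine rings are assembled stepwise on ribose phosphate until inosine monophosphate is formed, whereas the pyrimidine ring is closed first and joined to ribose phosphate afterwards. Both routes draw on glutamine and aspartate, and the purine route also takes formyl groups from the folate cycle, which serine feeds. Dividing thymocytes need these nucleotides for RNA and DNA. mTORC1 is known to act on the routes through phosphorylation of CAD downstream of S6 kinase and through ATF4, which raises expression of the mitochondrial folate enzyme MTHFD2, and MYC is known to bind the promoters of several of these genes. None of these activities was measured here.

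Promoters of 7 of the 8 measured enzymes (all but Dhodh) were in the RefSeq promoter table of mouse build GRCm38.p6, which gives 250 bases before and 50 after each annotated start. The 100 bases before the start are shown for 4 of them: Gart, with the largest genotype difference in ISP cells by the probe set used, Atic, with the largest difference between WT populations, Cad, the entry to the pyrimidine route, and Paics, the enzyme whose ISP difference missed the threshold. Capitals mark GGGCGG, the core of a GC box, on either strand, and CACGTG, the palindromic E-box core that MYC and MAX can bind.
Gart, chr16:91646973-91647072, minus strand: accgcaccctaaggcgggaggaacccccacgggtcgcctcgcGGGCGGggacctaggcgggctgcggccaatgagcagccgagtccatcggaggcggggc
Atic, chr1:71557056-71557155, plus strand: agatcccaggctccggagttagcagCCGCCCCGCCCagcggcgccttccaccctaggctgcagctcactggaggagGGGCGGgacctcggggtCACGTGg
Cad, chr5:31054680-31054779, plus strand: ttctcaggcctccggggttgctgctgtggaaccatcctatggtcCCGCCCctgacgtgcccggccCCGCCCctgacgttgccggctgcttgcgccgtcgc
Paics, chr5:76951202-76951301, plus strand: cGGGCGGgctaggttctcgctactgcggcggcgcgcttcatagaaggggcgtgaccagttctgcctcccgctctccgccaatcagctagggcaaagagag
GGGCGG lay within the 100 bases before the start of all 7 measured enzymes, against 24.7% of 32851 promoter windows of the same table. The table also held a window for the unmeasured Impdh2, where GGGCGG lay only further upstream, at position -227. CACGTG was found in the 300-base windows of 2 of the 7, Atic at position -7 and Paics at position -203 from the start, against 7.15% of windows. CCAAT was found in 3 (37.4% of windows) and CCGGAA in 3 (14.9%), each searched on both strands. GGGCGG and CCGGAA may overlap each other and were counted separately. These matches describe letters and show no binding. Ppat and Paics are neighbours on opposite strands of chromosome 5, with annotated starts 276 bases apart and each start inside the span of the other gene.

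Signal scales differed by set: the median over probe sets was between 6.03 and 6.13 for each of the 12 DN3a and γδ arrays, and at most 3.88 for each of the 7 ISP arrays. ISP levels were therefore never set against the others. All levels below are log2 units of 1 probe set per gene and are not comparable between genes. The Rptor probe set was lower in Rptor-/- arrays by 0.24 (SE 0.08) in ISP, 0.58 (SE 0.08) in DN3a and 0.30 (SE 0.08) in γδ T cells (limma adjusted p = 0.0384, 5.98e-04 and 0.0489). Exact two-sided permutation tests gave p = 0.114, 0.1 and 0.1, where the smallest possible were 0.0571, 0.1 and 0.1. In ISP cells the groups overlapped, and leaving out Rptor-/- array 1 or 2, or WT array 1, 2 or 4, ended the call (-0.24 to -0.18). In γδ T cells leaving out any one of the 6 arrays ended it (-0.33 to -0.27). Both calls also ended with only the compared arrays fitted (limma adjusted p = 0.128 in ISP and 0.114 in γδ T cells), and the γδ call with arrays centred on their medians (0.102). This probe set may lie outside the deleted part, so it is no measure of deletion. Cd8a stood at the 99.6th percentile of genes on ISP arrays. WT γδ T cells were above WT DN3a cells in all 5 measured γδ markers, including Zbtb16 (2.81) and Il23r (4.91), and below them in all 7 measured DN3 markers, including Il2ra (-3.48) and Ptcra (-4.28). The constant-region genes of the γδ receptor were not analysed here.

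Loss of Raptor in ISP cells, on the path towards αβ T cells, went with lower levels of nucleotide synthesis enzymes in both routes. All 8 measured enzymes were lower in Rptor-/- than in WT arrays, and 7 passed the threshold by limma (adjusted p below 0.05 over all 22180 genes). The model held all groups, so the spread among DN3a and γδ arrays also entered these p-values and those given below. With only the ISP arrays fitted the same 7 passed, with larger limma adjusted p-values. These ran from 0.0102 for Adsl to 0.0346 for Umps, with Cad at 0.0286 and Gart at 0.0202. Paics was at 0.0761 in that fit. Levels of the 8 enzymes were 62.6% to 81.1% of WT. Over all genes, 6.57% were called lower and 5.87% higher. The median difference was -0.54 over the 8 enzymes and -0.0039 over all genes. For all 8 every Rptor-/- array lay below every WT array, which held for 8.95% of all genes. In sorted bulk samples, fewer cells of a kind that expresses a gene and less RNA of it per cell cannot be told apart.

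In the pyrimidine route Cad encodes the large protein that carries out the opening steps, from glutamine and bicarbonate to dihydroorotate. Its level was 7.51, 7.56, 7.27 and 7.15 on the 4 WT ISP arrays and 6.84, 6.84 and 6.77 on the Rptor-/- arrays. The WT arrays spread more widely than the Rptor-/- arrays, which were nearly level, and the groups did not overlap. Cad fell by 0.56 (SE 0.09, limma adjusted p = 4.06e-04), to 68.0% of WT. Umps encodes the enzyme that finishes the route by making uridine monophosphate. It stood at 9.31, 9.26, 8.95 and 9.19 in WT and 8.73, 8.73 and 8.47 in Rptor-/- ISP cells. The lowest WT array was array 3 and the lowest Rptor-/- array was array 3. Umps fell by 0.53 (SE 0.09, limma adjusted p = 6.32e-04). Dhodh, the mitochondrial enzyme between these steps that passes electrons to ubiquinone, had the smallest change. It was 5.91, 5.97, 6.02 and 6.03 in WT and 5.68, 5.67 and 5.69 in Rptor-/- arrays, a difference of -0.30 (SE 0.07, limma adjusted p = 0.0071).

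In the purine route Gart, a single protein with several activities of the early and middle steps, had the largest difference by the probe set used. Its level was 8.08, 8.15, 7.83 and 7.80 on WT ISP arrays and 7.43, 7.31 and 7.13 on Rptor-/- arrays. Array 3 was the lowest of the Rptor-/- arrays, and the groups were well apart. Gart fell by 0.68 (SE 0.10, limma adjusted p = 7.73e-05), to 62.6% of WT. Of the other Gart probe sets, one was at 9.09 ± 0.19 in WT (SD, n = 4) and 8.66 ± 0.25 in Rptor-/- ISP cells (SD, n = 3), lower by 0.43, with its highest Rptor-/- array at 8.94 just above its lowest WT array at 8.92. The remaining one was dim, at 3.38 in WT and 3.50 in Rptor-/-, and went the other way. With its 3 probe sets averaged Gart fell by 0.33 (limma adjusted p = 0.0158), less than Ppat, Atic or Adsl. Ppat, the amidotransferase that commits ribose phosphate to purines, was between 9.33 and 9.67 in WT and between 8.73 and 9.05 in Rptor-/- arrays. Ppat fell by 0.57 (SE 0.11, limma adjusted p = 9.71e-04).

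Adsl, which releases fumarate at separate steps of the purine route, was 8.05, 8.17, 8.12 and 7.99 in WT and 7.66, 7.43 and 7.60 in Rptor-/- ISP cells. The Rptor-/- arrays were again all below WT, with array 2 lowest. Adsl fell by 0.52 (SE 0.07, limma adjusted p = 4.31e-05). Atic closes the purine ring and yields inosine monophosphate. It was 10.09, 9.92, 9.85 and 9.79 in WT and 9.47, 9.33 and 9.31 in Rptor-/- arrays, and fell by 0.54 (SE 0.09, limma adjusted p = 2.72e-04). Paics, with carboxylase and ligase activities between Gart and Adsl, was 8.89, 8.74, 8.55 and 8.68 in WT and 8.43, 8.43 and 8.30 in Rptor-/- arrays. Its difference of -0.33 (SE 0.11) missed the threshold (limma adjusted p = 0.0582). It passed without WT array 3 (-0.38, adjusted p = 0.0382), and at unchanged size with the genes of lowest mean level left out (0.0443) or with a variance trend (0.0452). The other 7 calls were kept with each of the 7 ISP arrays left out in turn.

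**Figure D1:**
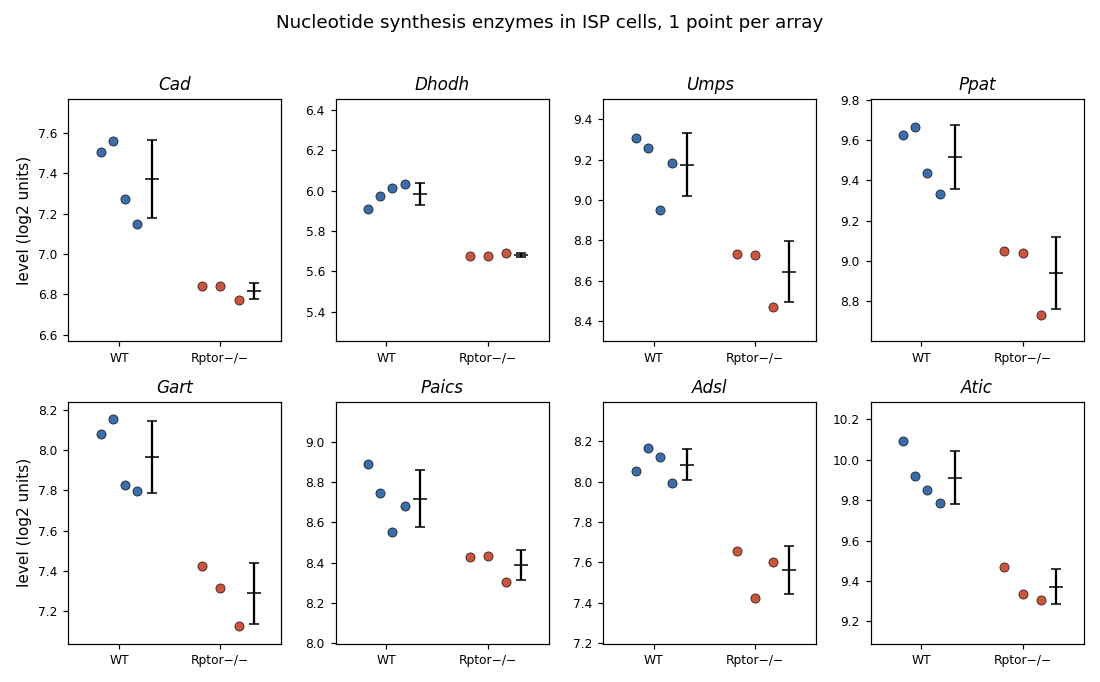
Levels of 8 nucleotide synthesis enzymes (y axes, log2 units, each panel with its own range) on 4 WT and 3 Rptor-/- ISP arrays, 1 point per array, with the mean and SD as a bar beside each group. In all 8 panels the Rptor-/- points lie below the WT points, closest for Paics, where the lowest WT array was at 8.55 and the highest Rptor-/- array at 8.43.

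The mean over the enzymes also differed between ISP arrays of the same genotype. Averaged over the 8 enzymes, the deviation from the midpoint of the group means was 0.35 and 0.34 on WT arrays 1 and 2, 0.17 and 0.16 on WT arrays 3 and 4, and -0.18, -0.24 and -0.34 on the Rptor-/- arrays. Rptor-/- array 3 was the lowest of its group for 6 of the 8. Not every enzyme followed the mean: Dhodh rose over WT arrays 1 to 4 (5.91, 5.97, 6.02 and 6.03). The mean level of 20 S phase genes, such as Mcm5 of the replicative helicase, was also lower on the Rptor-/- arrays. It was 9.13, 9.07, 8.93 and 8.98 on WT arrays and 8.75, 8.66 and 8.55 on Rptor-/- arrays. Of these 20 genes 12 were called lower and none higher. Among 13 G2/M genes 1 was called higher, the centromere protein gene Cenpf (0.99, SE 0.17, limma adjusted p = 4.6e-04), and none lower. DN3 markers rose in the same arrays, 6 of 7 being called higher and none lower by limma, and their mean level was 7.78 to 7.93 in WT and 8.57 to 8.68 in Rptor-/- cells. The part of S phase content or of DN3-like cells in the enzyme differences was not tested. Of the measured markers of B (5), myeloid (6), dendritic (5), NK (6), erythroid (1) and stromal (5) cells limma called 0 in ISP cells, and 1 each of the dendritic, NK and stromal lists had an unadjusted p under 0.05. Other T-cell markers moved. Of 4 ISP markers 1 was called higher, Lef1 (0.68, SE 0.07). Of 5 genes of mature T cells, not specific to the αβ lineage, 1 was higher, Cd6 (0.61, SE 0.12), and 1 lower. The lower one was the IL-7 receptor gene Il7r, at 5.03, 6.19, 5.90 and 5.21 in WT and 3.87, 3.83 and 4.01 in Rptor-/- arrays (-1.68, SE 0.18, limma adjusted p = 4.21e-06). WT array 4 stood apart from WT arrays 1 to 3 in some markers. The mean of the mature T-cell genes was 6.51 on it, against 5.92, 6.13 and 6.13. Cd4 was 7.38 on it, against 6.16, 6.15 and 5.79, although the gate was CD4-negative. The part of these marker shifts in the enzyme levels and differences was not tested.

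Beyond the 8 enzymes, 13 other genes of de novo synthesis were measured in ISP cells, and 6 were called lower, 1 higher and 6 not called (median -0.26). Ctps, CTP synthase 1 in current naming, fell by 0.60 (SE 0.09, limma adjusted p = 1.82e-04). Its level was 7.92, 8.01, 7.62 and 7.72 in WT and 7.25, 7.23 and 7.17 in Rptor-/- arrays. Its relative Ctps2 went the other way and rose by 0.36 (SE 0.09, limma adjusted p = 0.00833). On the guanine branch Impdh1, the isozyme of the unmeasured Impdh2, fell by 0.38 and Gmps, GMP synthetase, by 0.31 (limma adjusted p = 0.0112 and 0.0304). On the adenine branch Adssl1, an adenylosuccinate synthase, fell by 0.70 (SE 0.12). Its relative Adss was not called. Adss was 9.11, 9.08, 8.99 and 9.04 in WT and 8.99, 8.82 and 8.93 in Rptor-/- arrays. The kinases Guk1 and Nme1, which raise nucleotides to their higher phosphates, fell by 0.35 and 0.45. Prps1 and Prps2, which make the ribose phosphate donor, were not called.

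Of 10 genes of serine and one-carbon supply, 7 were called lower in Rptor-/- ISP cells and none higher (median -0.45). They included Mthfd1, the cytosolic enzyme that makes the formyl donor of the purine route (-0.78, SE 0.13), Shmt2 (-0.65, SE 0.09) and Mthfd2 (-0.52, SE 0.08). Of 14 salvage genes 3 were called lower and none higher (median -0.11): Hprt, which recycles hypoxanthine and guanine, fell by 0.60, Aprt, which recycles adenine, by 0.44, and Adk, adenosine kinase, by 0.37. Of 8 genes of deoxynucleotide synthesis limma called 0 in either direction (median -0.11), with 4 at an unadjusted p under 0.05. The ribonucleotide reductase gene Rrm2 was at -0.34 (SE 0.15, limma adjusted p = 0.179). Of 12 catabolic genes 1 fell, the nucleotidase gene Nt5c (-0.30), and of 6 nucleoside transporters 1 fell, Slc29a1 (-0.26). Among 7 measured regulators, Atf4 fell by 0.23 (SE 0.07, limma adjusted p = 0.0293), and Myc, Mycn, Max, Mtor, Rheb and Rps6kb2 were not called.

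In DN3a cells, the stage at which the αβ and γδ paths part, no difference in the enzymes was detected with loss of Raptor. By limma 0 of 8 enzymes were called in either direction and 0 had an unadjusted p under 0.05, where 0.712% of all genes were called higher and 0.271% lower. Differences ran from -0.12 for Cad to 0.10 for Paics, with a median of -0.05 over the enzymes and 0.01 over all genes. The groups overlapped for all 8. Cad was 9.92, 9.89 and 9.98 in WT and 9.66, 9.96 and 9.82 in Rptor-/- DN3a cells, and the 95% interval of its difference was -0.33 to 0.10. Gart was 10.65, 10.70 and 10.79 in WT and 10.46, 10.65 and 10.69 in Rptor-/- cells (interval -0.33 to 0.11). Across the 8 enzymes the intervals reached from -0.35 to 0.34.

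Rptor-/- array 1 was the lowest of its group for all 8 enzymes and the lowest of the 6 DN3a arrays for 6 of them. Its upper quartile over probe sets, 7.83, was the lowest of the 12 DN3a and γδ arrays, the next being 7.90. On that array the 20 S phase genes averaged 9.33, against 9.53 and 9.73 on the other Rptor-/- arrays and 9.66 to 9.85 in WT. The part of either in the enzyme values was not tested. Without Rptor-/- array 1 the median enzyme difference was 0.0428, without Rptor-/- array 2 it was -0.101 and without array 3 -0.0921, and no enzyme was called in any of these fits. In the related lists 1 gene was called in deoxynucleotide synthesis, Tyms, thymidylate synthase, which fell by 0.43 (SE 0.10, limma adjusted p = 0.0346), and 1 among regulators, Mycn, which rose by 0.54 (SE 0.10, limma adjusted p = 0.0095). No gene of one-carbon supply, salvage, catabolism, transport or the other de novo genes was called by limma in DN3a cells. At an unadjusted p under 0.05 these 5 lists held 2, 3, 0, 0 and 0 genes. Limma called none of 20 S phase and 13 G2/M genes, but 20 and 12 of them lay below 0 (medians -0.175 and -0.275). Cell type markers differed: 2 of 7 DN3, 2 of 5 γδ, 1 of 4 ISP, 1 of 6 myeloid and 1 of 5 stromal markers were called higher. No marker was called lower. The mean of the DN3 markers was 10.87 to 10.90 in WT and 11.30 to 11.39 in Rptor-/- arrays. The part of these shifts in the enzyme values was not tested.

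In γδ T cells the enzymes also showed no called difference between genotypes, although genes of DNA replication fell there. By limma 0 of 8 enzymes were called, where 1.77% of all genes were called higher and 1.28% lower, and 1 had an unadjusted p under 0.05. The median difference was 0.02 over the enzymes and 0.0042 over all genes. Umps was 8.99, 8.93 and 9.12 in WT and 8.91, 8.89 and 8.97 in Rptor-/- γδ T cells, the lowest of the 8 differences at -0.09 (95% interval -0.30 to 0.13). Atic was nearly level, at 9.21, 9.30 and 9.25 in WT and 9.19, 9.26 and 9.28 in Rptor-/- cells (difference -0.01, interval -0.21 to 0.19). Dhodh was 7.60, 7.46 and 7.56 in WT and 7.76, 7.67 and 7.73 in Rptor-/- cells. All 3 Rptor-/- arrays were above WT, which held for 12.2% of all genes, and the difference of 0.18 (SE 0.08) did not pass (limma adjusted p = 0.238). The intervals of the 8 enzymes reached from -0.30 to 0.34.

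**Figure D2:**
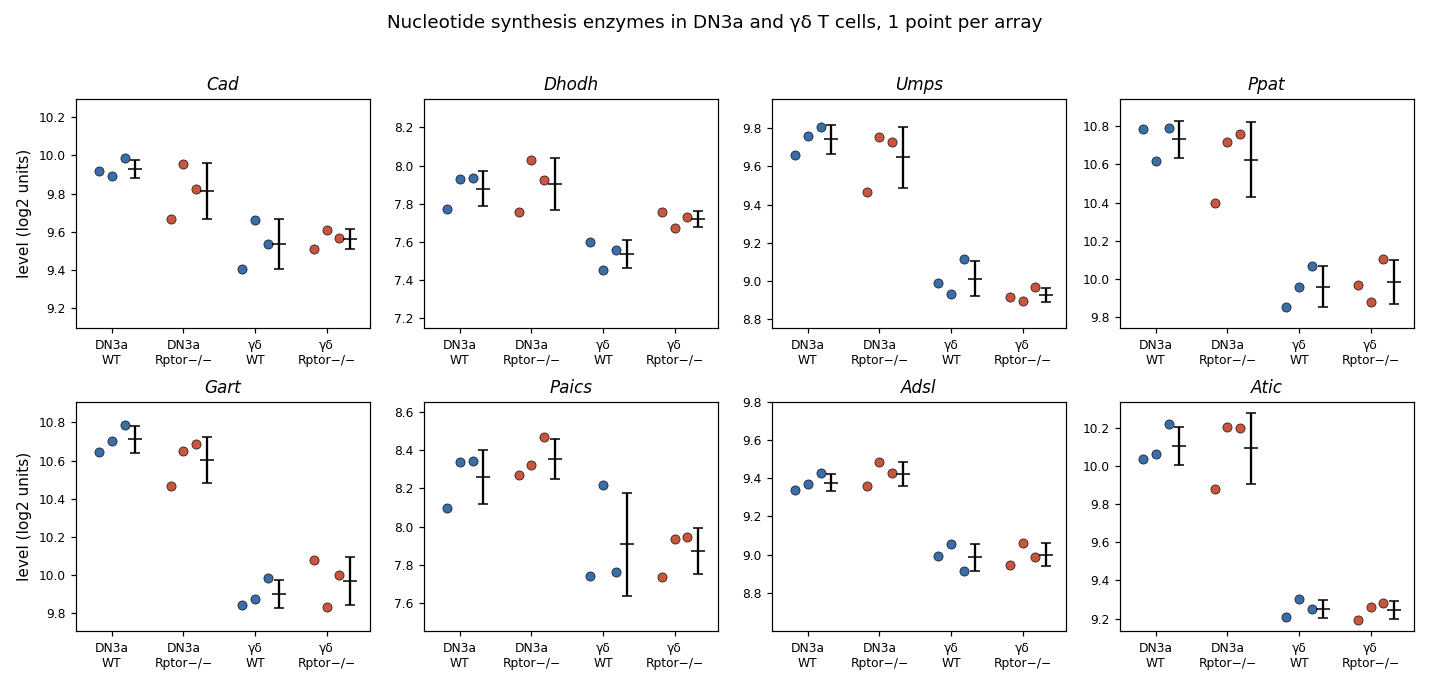
Levels of the 8 enzymes (y axes, log2 units, each panel with its own range) on 3 WT and 3 Rptor-/- arrays each of DN3a and γδ T cells, 1 point per array, with the mean and SD as a bar beside each group. The genotypes overlap within DN3a cells in all panels and within γδ T cells in all but Dhodh, while γδ points lie below DN3a points of the same genotype, apart from a WT array of Paics at 8.22.

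S phase and G2/M genes fell in the same γδ arrays. Of 20 S phase genes 16 were called lower and none higher by limma (median -0.54), including Uhrf1 (-0.70, SE 0.10) and Pcna, the replication clamp (-0.39, SE 0.07). Their mean level was 9.30 to 9.34 in WT and 8.69 to 8.91 in Rptor-/- γδ T cells. Of 13 G2/M genes 10 were called lower and none higher (median -0.79), for example Top2a, topoisomerase II alpha (-0.76, SE 0.14). Of 8 genes of deoxynucleotide synthesis 3 were called lower and none higher (median -0.20): Tyms by 0.71, and the ribonucleotide reductase genes Rrm1 by 0.67 and Rrm2 by 0.82 (limma adjusted p = 2.52e-04, 0.00597 and 0.00669). Rrm2 was 8.23, 8.61 and 8.62 in WT and 7.33, 7.73 and 7.93 in Rptor-/- γδ T cells. Of 14 salvage genes 3 were called lower, Dck, deoxycytidine kinase, by 0.58, Tk1, thymidine kinase, by 0.55 and Hprt by 0.34, and none higher. In one-carbon supply 1 of 10 was called, Psat1 of serine synthesis (-0.42), and among other de novo genes limma called 0 of 13, with 4 at an unadjusted p under 0.05. Myc rose by 0.42 (SE 0.11, limma adjusted p = 0.0345).

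Cell type markers also differed between the γδ arrays. Of 4 ISP markers 2 were called lower, Cd8a and Cd8b1, although the gate was CD8-negative. Cd8a fell by 0.53 (SE 0.13), but its signal was low, at the 35.6th percentile of genes over the DN3a and γδ arrays. Cd8b1 was 8.81, 8.85 and 8.75 in WT and 6.39, 7.38 and 7.50 in Rptor-/- arrays (-1.72, SE 0.22, limma adjusted p = 1.03e-04). The mean of the ISP markers was 8.19 to 8.35 in WT and 7.51 to 7.80 in Rptor-/- arrays. Of 6 NK markers Klrd1 was higher by 2.10 (SE 0.21), and Klre1 (-0.50, SE 0.13) and Gzma (-0.37, SE 0.10) were lower. Of 7 DN3 markers 1 was higher, Dtx1 (0.57, SE 0.10), and of 5 γδ markers 1, Zbtb16 (0.74, SE 0.12). Their part in the values of the enzymes, cell cycle and deoxynucleotide genes was not tested.

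The test of whether the genotype effect differed between γδ T and DN3a cells called 0 of 8 enzymes by limma, and 0 had an unadjusted p under 0.05, where 0.6% of all genes were called in either direction. These differences of effects ran from -0.13 for Paics to 0.18 for Gart, with 95% intervals between -0.48 and 0.49. ISP effects were not tested against the others, since those arrays have another scale.

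**Figure D3:**
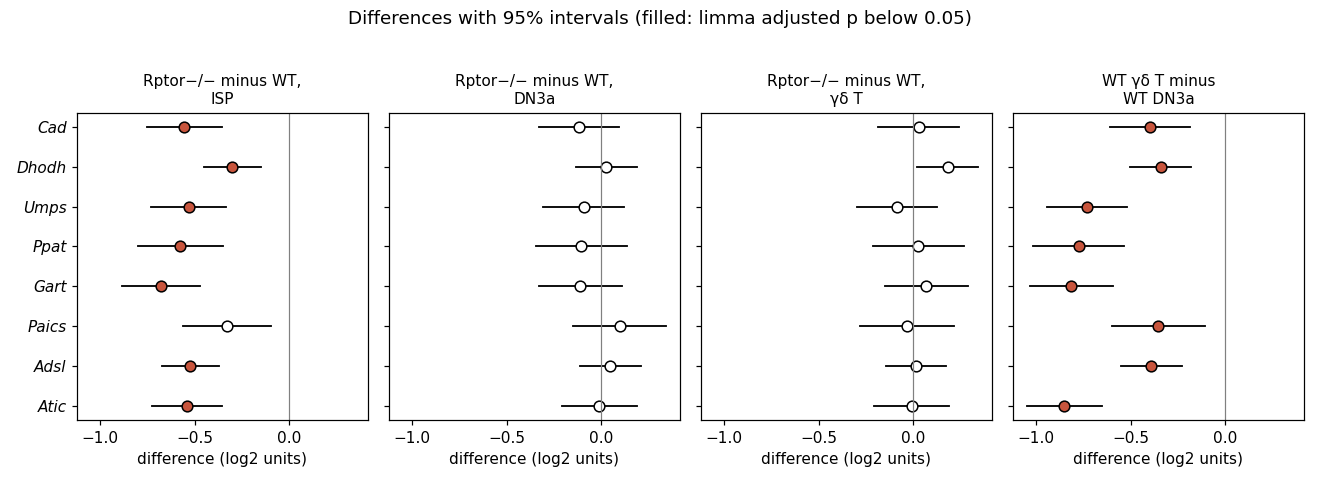
Differences of the 8 enzymes (x axes, log2 units) in 4 comparisons, with 95% intervals from limma as lines and filled points for adjusted p below 0.05. Points for ISP cells and for WT γδ against WT DN3a cells lie left of 0 for all 8 enzymes, and those for genotype in DN3a and γδ T cells lie between -0.12 and 0.18.

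**Figure D4:**
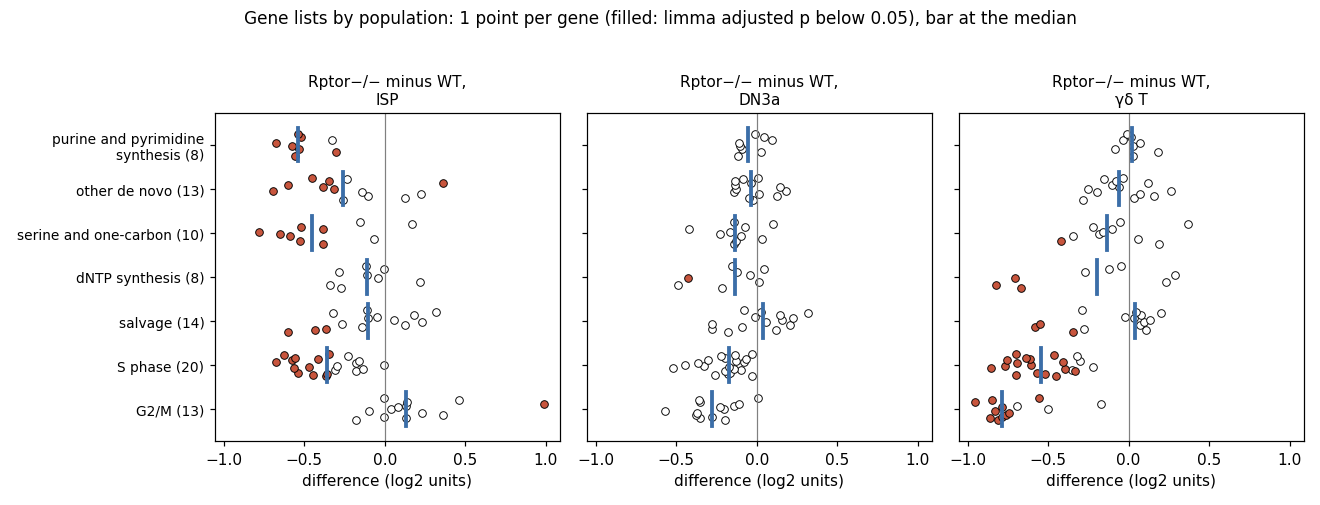
Genotype differences (x axes, log2 units) of the genes of 7 lists in 3 populations, 1 point per gene, filled for limma adjusted p below 0.05, with a bar at the list's median and the number of measured genes beside its name. The enzyme list has its median at -0.54 in ISP cells and 0.02 in γδ T cells, and the S phase list at -0.36 and -0.54.

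Between WT cells, all 8 enzymes were lower in γδ T cells than in DN3a cells, and all 8 passed by limma. Over all genes 12.3% were called lower and 12.7% higher. Levels in γδ T cells were 55.5% to 79.0% of those in DN3a cells, and the median difference was -0.56 over the enzymes and -0.0041 over all genes. The groups did not overlap for 7 of 8, which held in this direction for 19.6% of all genes. The WT arrays are those of the genotype comparisons above, so the values are not independent of them.

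By the probe sets used, Atic and Gart of the purine route differed most. Atic was 10.03, 10.06 and 10.22 in WT DN3a cells and 9.21, 9.30 and 9.25 in WT γδ T cells, lower by 0.85 (SE 0.09, limma adjusted p = 6.95e-07). Gart was 10.65, 10.70 and 10.79 against 9.84, 9.87 and 9.98, lower by 0.81 (SE 0.10, limma adjusted p = 4.8e-06). A further Gart probe set was lower by 0.27 and the dim one higher by 0.20, and with all 3 averaged Gart was at -0.291 (limma adjusted p = 0.0272), the smallest difference of the 8, and the median over the enzymes was -0.393. Ppat was lower by 0.77 (SE 0.11) and, of the pyrimidine enzymes, Umps by 0.73 (SE 0.10), from 9.66, 9.76 and 9.80 to 8.99, 8.93 and 9.12. Cad, Adsl and Dhodh differed by -0.40, -0.39 and -0.34 (limma adjusted p = 0.00564, 5.5e-04 and 0.00207).

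Paics was 8.10, 8.34 and 8.34 in WT DN3a cells and 7.74, 8.22 and 7.76 in WT γδ T cells. WT γδ array 2 lay inside the DN3a range. Its difference of -0.35 (SE 0.12, limma adjusted p = 0.0323) lost the call without WT DN3a array 2 (-0.31) or 3 (-0.31), without WT γδ array 1 (-0.27) or 3 (-0.28), and with only these 6 arrays fitted (adjusted p = 0.0711). The other 7 calls were kept with each of the 6 arrays left out in turn.

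Of the other de novo genes 6 of 13 were lower in WT γδ than in WT DN3a cells and none higher (median -0.16), among them Prps2, which makes the shared ribose phosphate donor (-0.81, SE 0.07), and Gmps (-0.39, SE 0.10). One-carbon genes were mixed, with 4 of 10 lower and 3 higher. Phgdh, the entry enzyme of serine synthesis, was at -1.12 (SE 0.09) and Mthfd1 at -0.99 (SE 0.14), while Psph, the last enzyme of serine synthesis, was at 0.71 (SE 0.10). Of 14 salvage genes 7 were lower and none higher (median -0.27), including Uck2, uridine-cytidine kinase (-1.28, SE 0.07), and Ada, adenosine deaminase (-0.81, SE 0.12). Samhd1, which degrades deoxynucleotides, had the largest difference of the deoxynucleotide genes at 4.73 (SE 0.14), whereas 5 of the 8 were lower, such as Dctd, dCMP deaminase (-0.88, SE 0.10). Of 12 catabolic genes 4 were higher and 3 lower, with Xdh, xanthine dehydrogenase, at 2.95 (SE 0.10). Myc was lower by 1.68 (SE 0.11) and Mycn by 0.54 (SE 0.10) in WT γδ T cells. Of 20 S phase genes 13 were lower and 1 higher (median -0.43), and of 13 G2/M genes 1 was higher and none lower. ISP markers were called higher for 2 of 4 and lower for none. Among them Cd8b1 was 7.092, 7.055 and 7.87 in WT DN3a cells and 8.813, 8.853 and 8.75 in WT γδ T cells, although both gates were CD8-negative. Of 5 B, 6 myeloid and 5 stromal markers 1 each was called lower and none higher. NK markers were higher for 5 of 6, and genes of mature T cells, which are not specific to the αβ lineage, for 4 of 5. The exception was Il7r, at 10.827, 10.847 and 10.916 in WT DN3a cells and 10.825, 10.719 and 10.936 in WT γδ T cells. The part of these shifts in the enzyme differences was not tested.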

How the data were processed

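The deposited values were log2 expression per probe set of 19 arrays, made by the authors with RMA in Partek 6.6, per the submitters' processing notes. Per the labels' protocols 12 ng of RNA was amplified per array. The sources used here do not say which arrays shared a normalization. RMA sets arrays to a shared distribution, so values are relative within an array. Depth is not defined for arrays, and their number limits precision.

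The annotation paired 23521 of 41345 probe sets with a single symbol; 1814 with several symbols and 16010 unnamed ones were left out. For 23328 probe sets the Entrez ID was found in RefSeq tables of GRCm38.p6, whose symbol was used whether or not it differed. The probe set with the highest mean over all arrays stood for each of 22180 genes. Differences came from limma 3.58.1 in R 4.3.3 (lmFit, eBayes), 1 model of 6 group means, adjusted by Benjamini-Hochberg across all genes. The model was checked on simulated data. Figures used matplotlib 3.10.9. Members and gene lists were chosen with earlier results of these data known, the lists from textbook knowledge. Named were all members, Rptor, the called or lowest-p genes of the pathway lists, up to 3 genes of each cell cycle or marker list, and the 5 genes most like the members. Replicate numbers were not taken to pair arrays, since deviations correlated under 0.1 for at least 1 pair of each population. Alternatives changed normalization, a filter, the arrays fitted, probe sets, the variance model, a replicate block and single arrays left out.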

Additional observations from a re-analysis of the deposited data

Results flagged for a closer look

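Dhodh was lower on all Rptor-/- arrays in ISP cells and higher on all Rptor-/- arrays in γδ T cells, where its difference was 0.182. The difference between these effects was not tested, because the arrays were on separate scales. Rptor itself read 6.336 on WT ISP array 3, apart from the other WT ISP arrays at 6.47 to 6.49 (such a gap arises by chance in about 1 in 20 groups), and equal to Rptor-/- array 3 at 6.34.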

How the results depend on the processing

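Genes called numbered 2759 in ISP, 218 in DN3a and 677 in γδ T cells, 5560 between WT γδ and DN3a cells and 133 for the difference of effects. With only the compared arrays fitted the first 3 counts were 1313, 144 and 345. With single arrays left out the counts ran from 124 to 254 in DN3a cells, 333 to 782 in γδ T cells and 76 to 161 for the difference of effects, while the median enzyme difference ran from -0.101 to 0.0428 in DN3a cells, from -0.0287 to 0.0517 in γδ T cells, and from -0.0234 to 0.119 for the difference of effects. In ISP cells that median stayed between -0.575 and -0.49. With all probe sets of a gene averaged, the WT median was -0.393 in place of -0.562, where Gart has 3 probe sets. Centring arrays on their medians moved the share of higher calls in γδ T cells from 58.1% to 74.9%, and quantile normalization moved it from 72.5% to 60% in DN3a cells; for the difference of effects, centring moved it from 65.4% to 75.4%. With the replicate block, 8 enzymes were called lower in ISP cells, Paics included (-0.341, adjusted p = 0.0354), and counts of called genes were 2629, 212, 691, 5830 and 98; no other enzyme call changed, but the Rptor call ended in ISP (-0.233, adjusted p = 0.147) and γδ T cells (-0.301, adjusted p = 0.117). Not every same-numbered pair had correlated deviations (r over 0.1); in DN3a cells r was 0.242, 0.013 and 0.169. Rptor-/- arrays correlated best with their own number for 1 of 3 in ISP, 2 of 3 in DN3a and 0 of 3 in γδ T cells, and WT arrays for 2, 3 and 0, a hint of shared numbers in DN3a cells from the data and not the design.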

Other observations

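The genes whose levels followed the enzymes most closely were sought over the 19 arrays, after the midpoint of the genotype means of each population was taken off. The 5 highest Pearson correlations with the mean of the 8 enzymes were those of Ltv1 (0.964), a ribosome assembly factor, Fasn (0.963), fatty acid synthase, Ddx21 (0.962), a nucleolar RNA helicase, Glrx5 (0.959), a mitochondrial glutaredoxin of iron-sulfur cluster assembly, and Ipo5 (0.956), a nuclear import receptor. The points share their arrays and genotype groups, and no test is given. Group means of the enzyme deviation were -0.252 and 0.252 in Rptor-/- and WT ISP cells, and between -0.017 and 0.017 in the other groups. The correlations thus rest mainly on the genotype difference in ISP cells. Genotype differences of these 5 genes were -0.54, -0.61, -0.81, -0.59 and -0.68 log2 units in ISP cells, and between -0.17 and 0.06 in DN3a and γδ T cells. Between WT γδ and WT DN3a cells, a difference that the centring takes off, they were at -0.36, -0.27, -0.42, -0.09 and -0.56.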
